A study of Rattus norvegicus with 12 samples.

Results

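The step from 24 to 48 hours after partial hepatectomy, an operation that takes out part of the liver so that the rest regrows, was examined in rat liver by direct comparison of 2 libraries at 48h with 2 at 24h. These 4 libraries, chosen by their titles, belong to a small RNA sequencing series of 12, with 6 further libraries of normal, sham-operated liver (pre_PH) and 2 at 168h. All animals were of the inbred Fischer-344 (F-344) strain, those at 24h, 48h and 168h had undergone hepatectomy, and the labels gave no age, sex or genetic change. The libraries of pre_PH and 168h served only to estimate the spread between libraries. Nothing in the labels tied the 2 libraries of a time to separate animals. The p-values therefore set a difference between times only against the spread between libraries of a group, which may be technical. No batch or date was given, so the time and any preparation that both of its libraries shared cannot be told apart.

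The readout was the number of reads matched to each listed piRNA name. PIWI-interacting RNAs (piRNAs) are small RNAs that guide PIWI proteins to matching transcripts, and they are best known for silencing transposons in the germ line. After hepatectomy the remaining hepatocytes leave quiescence and replicate their DNA, other liver cells follow, and the tissue grows back. A name here is a database entry that reads matched: PIWI proteins, other transcripts and cell type markers were not measured, so neither PIWI binding nor the labelled tissue could be checked. In bulk tissue, fewer cells of a type and less RNA per cell cannot be told apart. Functions of single piRNAs are not stated, and piRNA sequences were not used here.

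Depth did not separate the times. Listed piRNA reads numbered 122673 and 183773 in 24h replicates 1 and 2, and 120844 and 251665 in 48h replicates 1 and 2, so the shallowest and the deepest of the 4 libraries were both from 48h. They were 0.420% (95% Wilson interval 0.417 to 0.422%) and 0.803% (0.799 to 0.806%) of library reads at 24h. At 48h they were 0.583% (0.579 to 0.586%) and 0.800% (0.797 to 0.803%). The times overlapped, with means of 0.611% ± 0.271 (SD, n = 2) and 0.691% ± 0.154 (SD, n = 2) and an exact two-sided permutation p = 1.0. With 6 splits of 2 against 2 libraries no exact permutation test of a single measure can go below p = 0.333. Intervals cover counting error only, since copied reads are not independent molecules.

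More kinds of piRNA were seen at 48h. The listed names numbered 132 and 128 at 24h and 328 and 446 at 48h. At an equal depth of 120844 piRNA reads, the expected number of names was 131 and 114 at 24h and 328 and 330 at 48h. The 2 libraries of each time lay close together and the times did not overlap, a ratio of means of 2.68 (exact permutation p = 0.333, the smallest possible, adjusted p = 0.444 over 4 measures). Most of the added names held few reads. At 24h 34 and 33 names had 1 read and 44 and 47 had 2 to 9, against 109 and 173, and 137 and 169, at 48h. Names with 10 to 99 reads numbered 27 and 24 at 24h and 53 and 66 at 48h. At the abundant end the libraries were alike, with 12 and 13 names of 1000 or more reads at 24h and 12 and 15 at 48h.

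**Figure D1:**
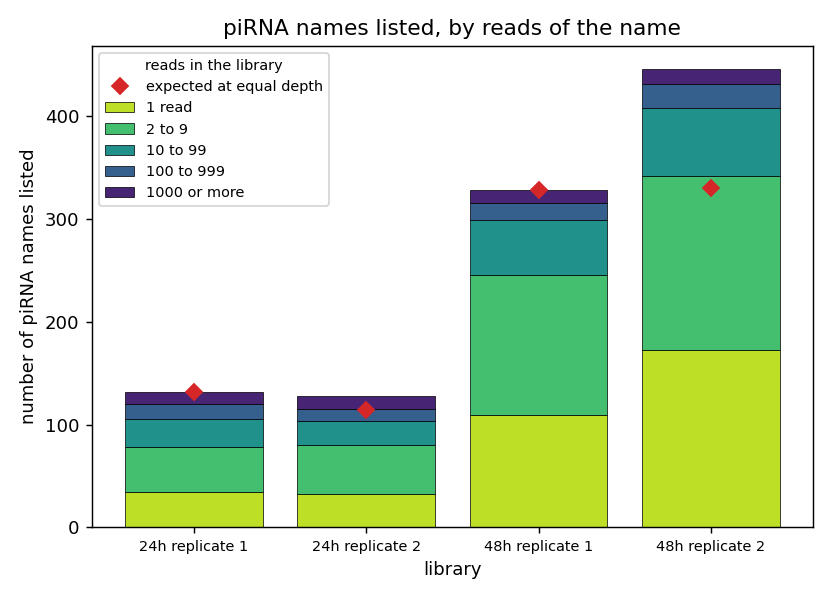
Number of piRNA names listed (y axis) in each of the 4 libraries (x axis), stacked by the reads of the name, with the number expected at 120844 reads as a diamond. The diamonds stand at 131 and 114 for 24h and at 328 and 330 for 48h, and the added names are mostly those under 10 reads.

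More names were added than lost between the times. Of 554 names with a read in any of the 4 libraries, 157 were seen at both times, 378 at 48h only and 19 at 24h only. Both 48h libraries held 239 names in common of 535, and both 24h libraries 84 of 176. A total of 106 names had reads in both 48h libraries and in neither 24h library, whereas 0 names showed the reverse. Together these 106 names held 0.306% and 0.181% of the piRNA reads at 48h, and 58 of them had at most 3 reads in each library. Only 1 of the 106, rno_piR_033815, was abundant enough to enter the test. The next 2 by reads, singled out after their values were seen, were rno_piR_000587 with 12 and 13 reads and rno_piR_027887 with 10 and 15. With 3 reads set as the limit over both 24h libraries, the ratio of pooled rates was 4.04 for each, on the scale of the test. That value takes the 48h reads as counted, and picking names by their reads favours a high one, so it is not a strict minimum. In 272 of the 378 names seen at 48h only, the reads came from 1 of the 2 libraries, and 173 had 1 read in all.

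The test across all names placed 12 piRNAs higher and 2 lower at 48h than at 24h, among 80 abundant enough to be tested. These are 15% and 2.5% of the names tested, 17.5% together (edgeR quasi-likelihood test, Benjamini-Hochberg adjusted p under 0.05). Values are given below as normalised CPM, counts per 1000000 TMM-scaled piRNA reads, a level set against the rest of the piRNA pool rather than all library reads. The normalised CPM of both 48h libraries lay above both 24h libraries in 37 of the 80 names (46.2%) and below them in 23 (28.8%), so a lack of overlap alone was common. In reads relative to the whole library, 48 names lay above, 9 below and 23 overlapped. The median log2 fold change over the 80 was 0.57 with TMM. The counts called depended on the scaling, with 26 higher and 0 lower in edgeR when scaled to the piRNA total (32 names in both directions at an unadjusted p under 0.05), 32 and 1 with the authors' library total, and 10 and 6 with TMM computed without the 10 most abundant names. They depended on single libraries too, with 2 calls in all without 24h replicate 1 and 2 without 24h replicate 2, 4 higher and 11 lower without pre_PH replicate 6, and 22 and 7 without 168h replicate 2. Leaving out pre_PH replicate 1, 3, 4 or 5 gave 21 and 5, 9 and 7, 21 and 6, or 19 and 4, leaving out 48h replicate 1 gave 15 and 5, and leaving out 168h replicate 1 gave 17 and 5. A name that is high only at 48h can enter the test through those libraries alone. Without the 48h libraries 62 of the 80 names, and 7 of the 14 called, would have passed the same filter on low counts. The other 7 called names, rno_piR_033815, rno_piR_011266, rno_piR_007474, rno_piR_005296, rno_piR_034827, rno_piR_028365 and rno_piR_030575, were tested because they were high at 48h. Their values are given as a description, and their calls, directions and shares support nothing further.

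**Figure D2:**
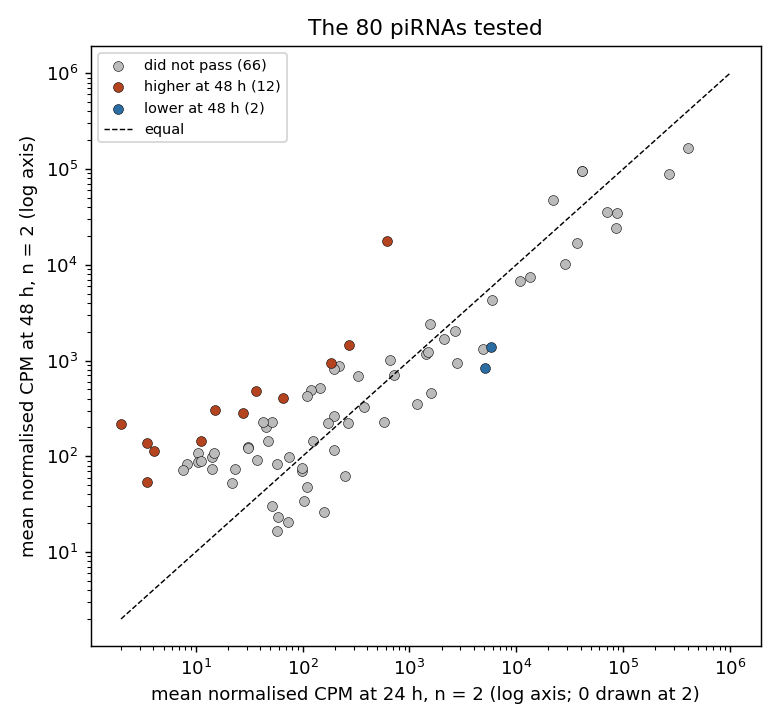
Mean normalised CPM at 24 h (x axis) against 48 h (y axis), both on log axes, for the 80 piRNAs tested, n = 2 libraries each, with called names coloured. Called rises lie mostly at low 24 h levels, rno_piR_031043 stands alone near 17680 at 48 h, and 7 of the 10 most abundant names lie below the line of equality. Only 5 of the 12 rises would have been tested without the 48 h libraries, and the filter favours low 24 h levels in the others.

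The change with the smallest p was in rno_piR_031043. It had 108 and 50 reads in the 24h libraries and 2881 and 7039 in the 48h libraries. In normalised CPM this was 887 and 354 at 24h, then 15828 and 19533 at 48h. Both 48h libraries stood far above both 24h libraries, and the 2 libraries of 48h differed less from each other than those of 24h did. The log2 fold change was 4.83 ± 0.74 (SE), a 28.5-fold rise (edgeR adjusted p = 9.4e-05). Its level in RPM, reads per 1000000 library reads, was 3.69 and 2.18 at 24h and 139 and 224 at 48h. Its share of piRNA reads went from 0.0880% and 0.0272% to 2.38% and 2.80%. Among the 6 pre_PH libraries the SD of its log2 normalised CPM was 0.30, against a median of 0.77 over the 63 tested names with reads in all 6. The rise passed without any 1 of the 12 libraries (adjusted p at most 0.00332) and in 13 of 14 other settings. The exception counted distinct sequences in place of reads (adjusted p = 0.459).

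Another 7 rises were in names with reads in both 24h libraries, all of them minor piRNAs. The most abundant, rno_piR_005633, had 34 and 37 reads at 24h and 174 and 707 at 48h, or 279 and 262 against 956 and 1962 normalised CPM. Its 24h libraries nearly coincided, those at 48h were farther apart, and both of the latter were higher. The log2 fold change was 2.43 ± 0.78 (edgeR adjusted p = 0.0369). For rno_piR_004937 the counts were 26 and 22, then 258 and 167, and the normalised CPM 213 and 156, then 1417 and 463. Here 48h replicate 1 was the higher, with a log2 fold change of 2.34 ± 0.78 (edgeR adjusted p = 0.0427). The counts of rno_piR_002100 were 9 and 8 at 24h and 90 and 115 at 48h, with 73.9 and 56.6 against 494 and 319 normalised CPM. Both times were even in this name, and it rose by a log2 fold change of 2.63 ± 0.79 (edgeR adjusted p = 0.0297).

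The other 4 piRNAs with reads in both 24h libraries had under 10 reads in each 24h library, and all but rno_piR_010458 entered the test only through the 48h libraries. In rno_piR_034827 these were 8 and 1, then 135 and 82, a log2 fold change of 3.74 ± 0.97. Its 24h libraries, at 65.7 and 7.08 normalised CPM, were the farthest apart among the 70 tested names with reads in both 24h libraries, and both lay below the 742 and 228 of 48h. In rno_piR_010458 there were 2 and 2 reads at 24h and 68 and 86 at 48h (log2 fold change 4.26 ± 1.21, edgeR adjusted p = 0.0202). Its level was 16.4 and 14.2 normalised CPM, then 374 and 239, so neither time showed a wide gap between libraries. For rno_piR_028365, 5 and 2 reads became 70 and 63, or 41.1 and 14.2 against 385 and 175 normalised CPM (log2 fold change 3.32 ± 1.16). In this name, too, both 48h libraries lay above both 24h libraries. With 3 reads at 24h, 1 and 2, against 30 and 45 at 48h, rno_piR_030575 is better described by its ratio of pooled rates, 12.1 (95% counting interval 3.99 to 60.1).

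The last 4 names called higher had at most 1 read at 24h, and all 4 entered the test only through the 48h libraries. No read of rno_piR_033815 was found in either 24h library, and 57 and 42 were found at 48h. With 3 reads set as the limit over both 24h libraries, the ratio of pooled rates was 16.0. That value takes the 48h reads as counted and leaves out the spread between libraries, so it is not a strict minimum. A single 24h read was found for each of the remaining names. For rno_piR_011266 the reads were 0 and 1, then 28 and 44, a ratio of pooled rates of 34.9 (95% counting interval 6.07 to 1398). For rno_piR_007474 they were 1 and 0, then 22 and 39, a ratio of 29.6 (5.11 to 1187). The lowest of the called names, rno_piR_005296, had 0 and 1, then 10 and 19, a ratio of 14.1 (2.33 to 574). At 48h the libraries of these last 3 were close to each other, at 154 and 122, 121 and 108, and 54.9 and 52.7 normalised CPM, while rno_piR_033815 stood at 313 and 117.

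All these rises together remained a small part of the pool, and their joint shares are given as a description only. In the 7 names that entered the test only through the 48h libraries, the filter favours a larger share at 48h. The 12 names held 0.158% and 0.0686% of piRNA reads at 24h and 3.16% and 3.36% at 48h. Without rno_piR_031043 the other 11 held 0.0701% and 0.0414%, then 0.780% and 0.560%. Each of the 12 lay higher at 48h under all 6 scalings, and 10 of the 12 passed under each. The exceptions were rno_piR_005296 and rno_piR_028365 with TMM computed without the 10 most abundant names. In the 7 names given above the filter favours both the direction and the call, so their passing under other scalings adds no support. The calls of 11 of the 12 were lost when at least 1 single library was left out. Without 24h replicate 1 only those of rno_piR_031043 and rno_piR_034827 were kept of the 14, and without 24h replicate 2 only those of rno_piR_031043 and rno_piR_000324. Without pre_PH replicate 6, 8 of the 14 were lost, those of rno_piR_007474, rno_piR_010458, rno_piR_002100, rno_piR_005633, rno_piR_004937, rno_piR_030575, rno_piR_005296 and rno_piR_028365. Without 48h replicate 2 the calls of rno_piR_005633, rno_piR_030575, rno_piR_005296 and rno_piR_028365 were lost, without 48h replicate 1 those of rno_piR_004937 and rno_piR_028365, and without pre_PH replicate 3 those of rno_piR_030575, rno_piR_005296 and rno_piR_028365. The direction of these 11 did not change with any library left out. In each of them both 48h libraries lay above both 24h libraries, so leaving out 1 library could hardly reverse it. The constant direction therefore adds no support.

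**Figure D3:**
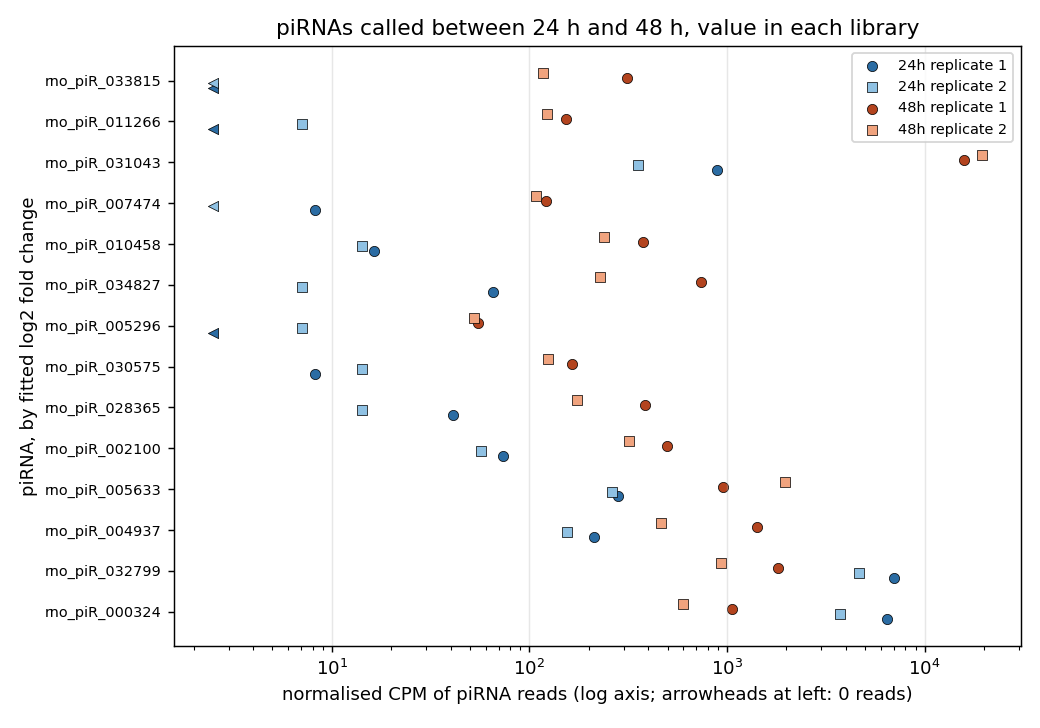
Normalised CPM (x axis, log) of the 14 called piRNAs (y axis) in each of the 4 libraries, with arrowheads at the left for 0 reads. In each name both 48h symbols lie on the same side of both 24h symbols, the 2 lowest rows being the names that fell.

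The 2 names that fell were more abundant at 24h than 11 of the 12 that rose were at 48h. The reads of rno_piR_000324 numbered 782 and 525 at 24h and 194 and 217 at 48h. In normalised CPM these were 6421 and 3717, then 1066 and 602, a log2 fold change of -2.60 ± 0.68 (edgeR adjusted p = 0.0166). For rno_piR_032799 there were 850 and 655 reads, then 329 and 337, or 6980 and 4637 against 1807 and 935 normalised CPM. Its log2 fold change was -2.08 ± 0.67 (edgeR adjusted p = 0.0369). At both times replicate 1 was the higher library in both names, and the times did not overlap. Relative to the whole library the direction was the same, with 26.7 and 22.9 against 9.35 and 6.90 RPM for rno_piR_000324, and 29.1 and 28.6 against 15.9 and 10.7 for rno_piR_032799. Scaled to the authors' library total, the log2 fold changes were -1.61 and -1.12. Leaving out 24h replicate 1 ended the call of rno_piR_000324 (edgeR adjusted p = 0.124), as did scaling to all listed piRNA reads. For rno_piR_032799 the call ended on leaving out 24h replicate 1, 24h replicate 2 or 48h replicate 2 (edgeR adjusted p at most 0.166), and it passed in 3 of 6 scalings.

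**Figure D4:**
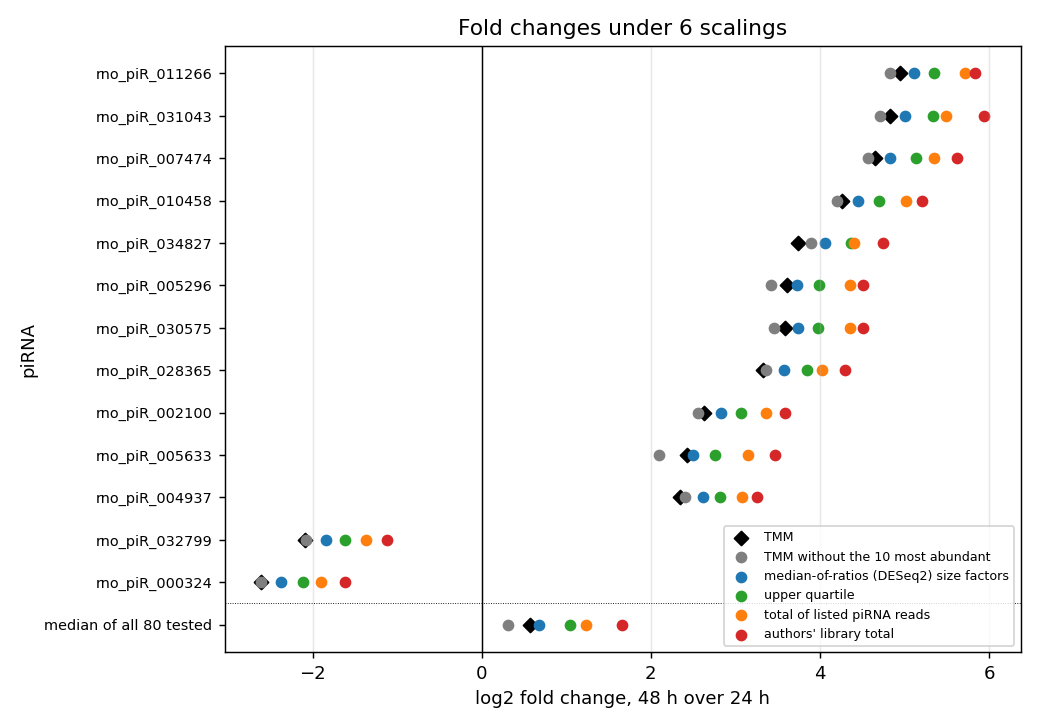
Log2 fold change, 48 h over 24 h (x axis), of 13 called piRNAs and of the median of all 80 tested (y axis), each point 1 of 6 scalings; rno_piR_033815, with 0 reads at 24 h, is left out. The median of the 80 runs from 0.31 to 1.66, the rises stay right of it and the falls left of 0 in every scaling. The filter on low counts favours that side in the rises that were tested only through the 48 h libraries.

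Values by abundance class are given as a description of lists drawn from these same libraries. Of the 10 names with the highest mean share over the 4 libraries, 0 were called by edgeR and 0 had an unadjusted p under 0.05, against 17.5% called among all tested names. The DESeq2 test called 1 of them, rno_piR_004288, lower (adjusted p = 0.0494), and limma-voom 0. With the 24h and 48h libraries alone, edgeR called 2 of the 10 lower, rno_piR_004288 and rno_piR_005556 (adjusted p = 0.0385 for each). The median log2 fold change of the 10 was -1.21, with 3 above and 7 below 0, beside 0.57 for all 80. Names of ranks 11 to 30 had 3 rises, 2 falls and a median of -0.38. The 50 tested names outside these 30 had 9 rises, 0 falls and a median of 1.89, with 22 higher and 2 lower at an unadjusted edgeR p under 0.05 and 2 lower with the DESeq2 test. With scaling to the piRNA total the 3 medians were -0.45, 0.34 and 2.60, beside 1.23 for all 80, so the middle class changed sign with the scaling. A rare name can pass the filter on low counts through the 48h libraries alone, so nothing more is read from the last class. The 70 tested names with reads in all 4 libraries had 8 rises, 2 falls and a median of 0.09, with 35 above and 35 below 0. This list is not free of that limit. Of its rises, rno_piR_034827, rno_piR_028365 and rno_piR_030575 entered the test only through the 48h libraries.

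The pool of abundant piRNAs was divided more evenly at 48h. The 10 most abundant names held 92.7% and 95.05% of piRNA reads at 24h and 91.1% and 89.1% at 48h, which did not overlap (exact permutation p = 0.333, adjusted p = 0.444). The 3 most abundant held 59.1% and 63.7%, then 55.1% and 47.6%. The effective number of names (the inverse Simpson index, the number of equally shared names that would give the same evenness) was 5.10 and 5.02, then 7.32 and 7.46.

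The leading name, rno_piR_000685, held 36.7% and 33.1% of piRNA reads at 24h and 23.3% and 24.9% at 48h. Its shares were lower in both 48h libraries, but the log2 fold change of -1.29 ± 0.95 did not pass (edgeR adjusted p = 0.304). In RPM of library reads the times overlapped, with 1540 and 2656, then 1355 and 1992. Shares of rno_piR_005556 were 19.6% and 26.5%, then 10.8% and 15.4% (log2 fold change -1.60 ± 1.27, edgeR adjusted p = 0.330, or 0.0385 with the 24h and 48h libraries alone). Those of rno_piR_004288 were 10.8% and 4.86%, then 4.44% and 2.77% (-1.81 ± 0.92, edgeR adjusted p = 0.134, or 0.0385 with those 4 libraries alone). In shares, not in the scale of the test, the 24h libraries of this name differed more than the lower of them did from 48h replicate 1.

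Of the 10 names, 3 had larger shares at 48h. The shares of rno_piR_005901 were 2.82% and 4.12%, then 21.0% and 7.32%, and those of rno_piR_005900, whose number is adjacent in the naming, were 1.57% and 2.19%, then 9.08% and 4.91%. Together this pair held 4.38% and 6.31% of piRNA reads at 24h and 30.1% and 12.2% at 48h. In normalised CPM, the scale of the test, the times overlapped for rno_piR_005901, whose 24h replicate 2 lay above its 48h replicate 2. They did not overlap for rno_piR_005900. The spread between the 2 libraries at 48h was wide, and neither passed (log2 fold changes 1.22 ± 0.86 and 1.10 ± 0.80, edgeR adjusted p = 0.293 and 0.298). The reads of rno_piR_005901 exceeded those of rno_piR_005900 in each of the 4 libraries, by ratios up to 2.32. Shares of rno_piR_005567 were 3.36% and 3.73%, then 10.7% and 17.1%, with even libraries at 24h (1.21 ± 0.94, edgeR adjusted p = 0.330). How reads that match both of 2 similar names were assigned is not given in the sources used here, so values of neighbouring names may share or split reads.

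The remaining 4 abundant names had overlapping shares at the 2 times, and none passed (edgeR adjusted p from 0.165 to 0.520). Shares were 6.07% and 8.78%, then 3.34% and 6.87%, for rno_piR_005787, and 5.59% and 6.55%, then 4.68% and 5.67%, for rno_piR_008639. For rno_piR_000030 they were 2.59% and 3.67%, then 1.29% and 3.59%, and for rno_piR_005359 3.61% and 1.61%, then 2.46% and 0.564%. In normalised CPM both 48h libraries lay below both 24h libraries in each of the 4, by log2 fold changes from -1.002 to -1.50. On that scale the larger TMM factors of the 48h libraries lower their values relative to the shares. Sham-operated liver gives a measure of how far such names spread within a group without hepatectomy. No time in hours is given for its 6 libraries. The SD of log2 normalised CPM over the 6 pre_PH libraries was 2.81 for rno_piR_005787, 2.32 for rno_piR_000030, 2.12 for rno_piR_005556 and 1.62 for rno_piR_008639, each larger in size than its log2 fold change from 24h to 48h. In the other 6 of the 10 it was smaller than the size of the fold change, at 0.81 for rno_piR_005567, 0.73 for rno_piR_004288, 0.67 for rno_piR_000685, 0.58 for rno_piR_005901, 0.43 for rno_piR_005900 and 0.42 for rno_piR_005359.

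**Figure D5:**
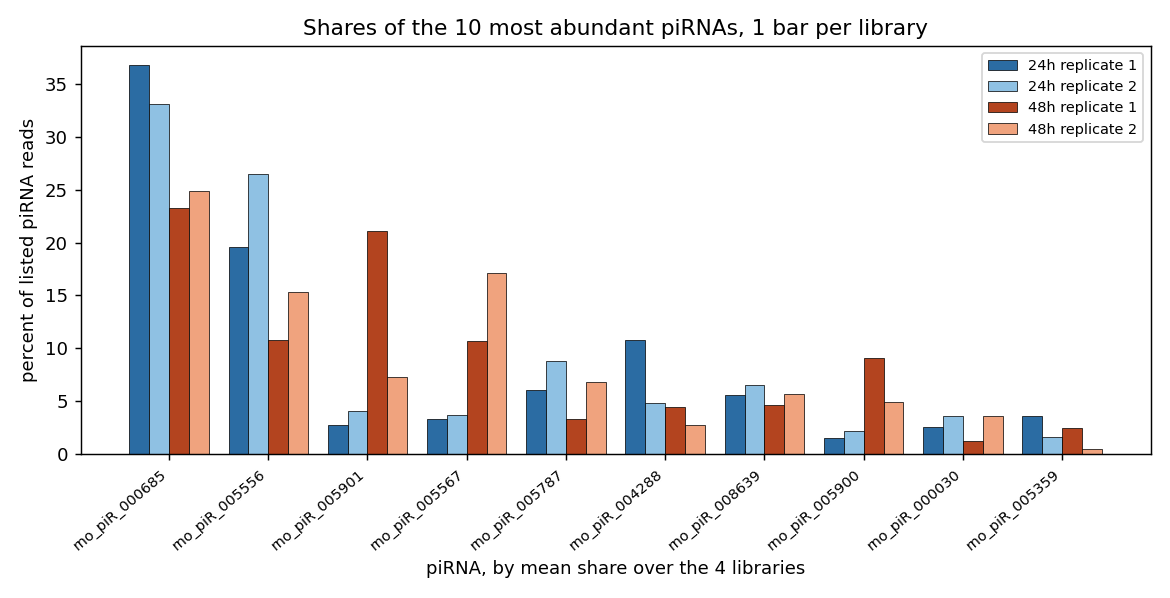
Percent of listed piRNA reads (y axis) held by each of the 10 most abundant piRNAs (x axis), 1 bar per library. The bars of rno_piR_000685 and rno_piR_005556 are lower at 48h, those of rno_piR_005901, rno_piR_005567 and rno_piR_005900 higher, and the 2 libraries of a time differ widely for rno_piR_005901 at 48h.

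Just outside the threshold, 10 names had an edgeR adjusted p between 0.0506 and 0.0539, of which 7 had higher and 3 lower values at 48h. The 5 with the smallest unadjusted p are described, several of the 10 being tied after adjustment. Among the 5, 2 had lower values at 48h. For rno_piR_000562 the reads were 252 and 160 at 24h and 104 and 123 at 48h (log2 fold change -1.81 ± 0.65), and for rno_piR_000575 they were 24 and 17, then 6 and 7 (-2.60 ± 0.93). The other 3 had higher values at 48h. Reads of rno_piR_006831 went from 12 and 20 to 112 and 132 (2.02 ± 0.74), and those of rno_piR_009530 from 1 and 3 to 23 and 33 (2.79 ± 1.05). For rno_piR_007198 there were 2 and 0, then 13 and 34, a ratio of pooled rates of 11.4 (95% counting interval 2.98 to 96.9). In all 5 the libraries of the 2 times did not overlap in normalised CPM, as in 60 of the 80 names tested. Each of the 5 passed in some other settings, the 2 lower names in 2 of the 6 scalings and the 3 higher names in 4. Without the 48h libraries 62 of the 80 tested names would have passed the filter on low counts. Which of the 3 higher names are among these was not recorded, so nothing further is read from their passing.

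The median gap between the 2 libraries of a time was similar at 24h and 48h, though over unlike sets of names. Over 70 tested names with reads in both 24h libraries, the median absolute log2 ratio of the 2 libraries was 0.78, and over all 80 names at 48h it was 0.81. The 10 tested names without a read in at least 1 24h library have no such ratio at 24h but are included at 48h. A gap of more than 2-fold was found in 20 of the 70 names at 24h and in 31 of the 80 at 48h. The widest gap at 48h, in a name singled out after its values were seen, was in rno_piR_020049. It had 104 and 43 reads at 24h and 80 and 6 at 48h, or 854 and 304 against 440 and 16.6 normalised CPM. Its 48h replicate 1 lay between the 24h libraries, and its log2 fold change of -1.37 did not pass (edgeR adjusted p = 0.298).

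A second deposited column, taken from its name to give how many different read sequences made up a count, was compared as well. Distinct sequences over all names numbered 1345 and 1404 at 24h and 2159 and 3057 at 48h. Nearly all of the difference lay outside the 10 most abundant names, where there were 757 and 781 at 24h and 1532 and 2377 at 48h. Within those 10 the numbers were 588 and 623, then 627 and 680. Per 100 piRNA reads there were 1.10 and 0.764 distinct sequences at 24h and 1.79 and 1.21 at 48h, which did not overlap (exact permutation p = 0.333, adjusted p = 0.444). Outside the 10 most abundant names the rate was 8.46 and 8.58, then 14.2 and 8.64, so there only 48h replicate 1 stood clearly apart.

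Some abundant names had the same number of distinct sequences in each of the 4 libraries, whatever their reads. It was 91 for rno_piR_000685 and 66 for rno_piR_005556. All reads of rno_piR_005901, from 3457 in 24h replicate 1 to 25435 in 48h replicate 1, came from 1 distinct sequence, whereas its numbered neighbour rno_piR_005900 had 58 and 84 at 24h and 98 and 110 at 48h. Such constant numbers were found in 6 of the 80 tested names, and for these the distinct sequences carry no information on the step.

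In the 12 names that rose, distinct sequences were more numerous in both 48h libraries than in both 24h libraries, as they were in 60% of all 80 tested names. This number moves with the reads and is not separate evidence of a rise. For rno_piR_031043 there were 17 and 14 at 24h and 27 and 30 at 48h, so the reads per distinct sequence were 6.35 and 3.57, then 107 and 235. The 57 and 42 reads of rno_piR_033815 at 48h were spread over 23 and 26 distinct sequences. Those of rno_piR_010458, 68 and 86, came from 5 and 6. Of the names that fell, rno_piR_032799 had 9 and 7 distinct sequences at 24h and 4 and 4 at 48h, and rno_piR_000324 had 11 and 11, then 6 and 11. Among the rises named here, reads per distinct sequence at 48h were thus many in rno_piR_031043 and few in rno_piR_033815. The latter was tested only through the 48h libraries, and its values are a description.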

How the data were processed

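Total RNA from rat liver was extracted with TRIzol, and TruSeq small RNA libraries were gel purified and sequenced on an Illumina HiSeq instrument, per the labels' protocols. The authors' deposited tables gave, per library, a read count and a count of distinct sequences for each piRNA name, both whole numbers without normalization per the file headers. They also gave the percent of each name relative to all library reads and to reads mapped to piRNAs, per the file headers. CASAVA 1.8, cutadapt, DESeq 1.14.0 and build rn4 are named in the submitters' processing notes with no role. Not given in the sources used here were the aligner, the mismatches allowed and how reads matching several names were treated.

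Missing names were taken as 0, giving 701 names over 12 libraries. The authors' library total was recovered as read count over percent, 1 constant per library. Replicates of each time differed by more than sampling noise (chi-square per degree of freedom 158 at 24h and 220 at 48h). Counts of all 12 libraries were fitted with edgeR 4.0.16 in R 4.3.3 (robust quasi-likelihood, 4 groups, TMM on listed reads, filterByExpr), which kept 80 names, with the contrast 48h minus 24h. The biological coefficient of variation was 0.591, with TMM factors between 0.480 and 1.51. The factors were 0.993 and 0.769 at 24h and 1.51 and 1.43 at 48h, the highest of the 12. Normalised CPM at 48h were thereby lower relative to shares than at 24h. With scaling to the piRNA total, log2 fold changes of the tested names were higher by a median of 0.72. The SE of a log2 fold change is its size over the square root of F. Per-library measures were compared by exact permutation tests in scipy 1.17.1, and the number of names at equal depth was computed exactly from the hypergeometric distribution. Alternatives used DESeq2 1.42.0 and limma 3.58.1.

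Named were all called piRNAs, the 10 with the highest mean share over the 4 libraries and the 5 with the next smallest p. The members and lists were chosen with earlier results of these data known.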

Additional observations from a re-analysis of the deposited data

Results flagged for a closer look

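Reads that the authors' percent of piRNA-mapped reads implies but that belong to no listed name were 0.663% of mapped reads in 48h replicate 1 (807 reads) and 0.761% in 48h replicate 2 (1930 reads). They drew attention because both values lie above the 0.0560 to 0.229% of the 6 pre_PH libraries. At 24h the remainder was 0.103% (126 reads) and 0.0810% (149 reads). These reads were not analysed here.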

How the results depend on the processing

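With 12 piRNAs called higher and 2 lower by edgeR, the counts were 21 and 6 with DESeq2 size factors, 21 and 1 with upper-quartile scaling, 26 and 0 with the piRNA total, 32 and 1 with the authors' library total, and 10 and 6 with TMM computed without the 10 most abundant names. They were 23 and 8 with the DESeq2 test, 19 and 4 with limma-voom, 2 and 1 with no filter on low counts, 11 and 1 with at least 10 reads in 4 libraries (6 of them among the 14, of which that filter left 7 to test), 11 and 2 without robust estimation, 17 and 10 with the 24h and 48h libraries alone, 8 and 0 with the 6 libraries after hepatectomy, and 4 and 1 of 39 tested with distinct sequences as counts. Where edgeR called 0 names lower, 32 names with the piRNA total, 30 with the 6 libraries and 17 without 24h replicate 1 had an unadjusted p under 0.05 in either direction. The median log2 fold change over all tested names moved from 0.31 to 1.66 with the scaling. Leaving out 1 library gave 1 to 22 higher and 0 to 11 lower, with the tested names kept and the lone library of a time assumed to vary like the other groups. The replicate block over the 6 libraries after hepatectomy gave 9 higher and 2 lower, 10 of them among the 14. Libraries with the same number at 24h and 48h had deviations correlated at r = 0.19 across 80 names, those at 24h and 168h at 0.14 and those at 48h and 168h at -0.20, and the labels tie the numbers to nothing shared.

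The log2 ratio of the piRNA share of library reads, 0.23, reversed to -0.23 without 24h replicate 1 and ran up to 0.70 with other libraries left out. Differences between 48h and 24h with a library left out ran from 198 to 215 names at equal depth, from -4.97 to -2.63 percentage points for the 10 most abundant and from 0.285 to 0.856 distinct sequences per 100 reads. Among single named piRNAs, 1 of 736 alternative values changed direction, that of rno_piR_005567 with distinct sequences as counts (log2 fold change -0.10), while 77 lost and 69 gained a call. Depth limits the names with under 10 reads at 24h most: a count of 0 there allows up to 3 reads.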
